A study of Mus musculus with 29 samples.

Results

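Complement and coagulation factors are the plasma cascade proteins that the liver makes. The 37 members were fixed by name: 19 coagulation, fibrinolysis and anticoagulant genes, 16 complement genes, and Serping1 and Vtn, whose products act in both systems. Of these, 36 were matched in a deposited table of 22187 gene IDs by their mouse GRCm38 symbols, 18 of them coagulation genes, and all 36 passed the filter on low values. Klkb1 was not analysed here.

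The libraries came from livers of C57BL/6 mice that all received the liver carcinogen diethylnitrosamine (DEN) at 25 mg/kg, at 2 weeks of age, followed by 18 weeks of feeding, so no group is free of DEN. Samples were tumour or non-tumour liver from animals on HFD or HFD_alcohol (called alcohol here), labelled IL17RA-/- or WT. IL-17 receptor A is a receptor subunit needed for the response to IL-17A. In non-tumour liver there were 5 libraries labelled IL17RA-/- and 5 WT on alcohol, and 3 and 3 on HFD. Tumours numbered 4 labelled IL17RA-/- and 3 WT on alcohol, and 3 and 3 on HFD. The series text speaks of liquid ethanol or pair-feeding where the sample labels say HFD_alcohol or HFD, and the sample labels were used. Which libraries share an animal is not stated, and each p-value is therefore relative to the variation among libraries, which may in part be technical.

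Coagulation turns soluble fibrinogen into fibrin through a chain of proteases, which is held in check by serpins, protein C and protein S, and undone by plasmin. Complement is started by antibodies, by lectins that bind microbial sugars or by spontaneous turnover of C3, converges on the C3 and C5 convertases, and ends in a pore of the terminal components. Hepatocytes are the main source of most of these proteins, and several of them, fibrinogen among them, are acute phase proteins.

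The promoters of 4 members are shown first as examples and do not represent their direction: Fgb and F11 were higher in tumours, and the neighbouring genes C8a and C8b were lower. Each line gives the 210 bases before the start of the gene (RefSeq, GRCm38.p6), 5′ to 3′ on the gene's strand. Capitals mark matches, on either strand, to 4 letter patterns: GTTAAT (HNF1-type), TTGCNNAA (C/EBP-type), CTGGGAA (acute phase STAT3-type) and TTCNNNGAA (STAT-type).
Fgb (chr3:83049864-83050073, minus strand): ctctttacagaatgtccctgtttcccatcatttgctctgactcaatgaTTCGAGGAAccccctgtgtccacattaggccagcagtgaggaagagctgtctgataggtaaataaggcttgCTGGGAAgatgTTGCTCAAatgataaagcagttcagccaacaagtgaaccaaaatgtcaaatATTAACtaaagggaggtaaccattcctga
F11 (chr8:45262032-45262241, minus strand): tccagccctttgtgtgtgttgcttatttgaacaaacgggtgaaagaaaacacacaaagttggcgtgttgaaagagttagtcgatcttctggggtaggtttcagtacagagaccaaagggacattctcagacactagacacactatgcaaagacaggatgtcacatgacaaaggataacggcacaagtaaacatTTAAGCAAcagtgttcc
C8a (chr4:104876399-104876608, minus strand): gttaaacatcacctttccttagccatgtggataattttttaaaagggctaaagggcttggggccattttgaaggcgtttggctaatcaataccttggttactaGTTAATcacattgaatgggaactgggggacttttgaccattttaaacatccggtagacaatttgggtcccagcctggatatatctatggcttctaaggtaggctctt
C8b (chr4:104766107-104766316, plus strand): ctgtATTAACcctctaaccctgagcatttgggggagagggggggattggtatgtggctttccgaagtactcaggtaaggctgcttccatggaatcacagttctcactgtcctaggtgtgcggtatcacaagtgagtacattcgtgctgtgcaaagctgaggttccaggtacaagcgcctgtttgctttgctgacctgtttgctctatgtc
Fgb, the fibrinogen beta chain gene, holds all 4 patterns, F11 only the C/EBP-type one, and C8a and C8b only the HNF1-type one in the stretch shown. In the 250 bases before 32851 mouse promoters, GTTAAT was found in 6.4%, TTGCNNAA in 9.6%, CTGGGAA in 9.1% and TTCNNNGAA in 7% (both strands). Among the 15 coagulation members with a promoter in the table, the same patterns were found in 3, 4, 3 and 4. Among 11 complement members they were found in 4, 2, 1 and 2. The patterns did not follow the direction: the C/EBP-type one was also in C9 and F9, lower in tumours. The HNF1-type one was also in Fga, higher in tumours. C6 and Mbl1, lower in tumours, and Serpinf2, higher, held none of the patterns. Letter matches describe these windows and were not tested as binding sites.

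Levels were taken as CPM (counts scaled to the same total in every library) per kilobase of exon, with a gene's annotated exons merged. By this measure C3, the central complement component, had the highest level of the 36 genes in non-tumour liver. Its median was 1657 CPM per kb. Fga followed at 1215, Fgg at 1132 and Fgb at 860 CPM per kb, and these are the 3 chains of fibrinogen. At the other end stood F11 at 17.1 and Masp1 at 9.43 CPM per kb. In tumours Kng1 had the highest median, 2160 CPM per kb, up from 576 in non-tumour liver, whereas C3 was at 1702. The merged length was 5143 bases for C3, 3810 for Fgb and 9833 for Masp1. A merged length can exceed that of the main transcript, so the order in either tissue depends on the annotation. Coagulation genes together held 15119 to 24720 CPM in the 16 non-tumour libraries (median 19412) and 22333 to 36365 CPM in the 13 tumours (median 30947). Complement genes together held 14013 to 24343 CPM (median 17784) and 14849 to 24975 CPM (median 15764), ranges that lie almost on top of each other. The 4 convertase genes (C3, C4b, C2 and Cfb) alone had median sums of 11780 and 11912 CPM, so this total says little about the less abundant members.

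One tumour, WT HFD replicate 4, lay outside the range of the other 12 tumours for 20 of the 36 genes. This was not counted over all genes or for any other tumour, so it is not known to be particular to the members. Tumour was compared with non-tumour liver as the mean of the differences within the 4 combinations of diet and genotype label. Limma on log2(CPM + 1), two-sided with Benjamini-Hochberg adjustment over 13586 genes, called a gene at an adjusted p under 0.05. Of the 36 members 30 passed, 11 higher and 19 lower, against 63.6% of all genes tested (36.6% higher and 27% lower), so passing is common and the sizes carry more of the description. Coagulation genes went both ways: 10 of 18 rose and 7 fell, with a median difference of 0.21. Complement genes went mostly one way: 1 of 16 rose and 10 fell, with a median of -0.62, where the median over all genes was 0.09. A difference of 1 or more on the log2 scale, in either direction, was found for 3 of 18 coagulation and 6 of 16 complement genes (37.5%), and for 13.1% of all genes tested. With 6 libraries left out that were doubted on inspection, 2 of them WT on HFD and 4 labelled IL17RA-/-, 15 coagulation genes (9 higher, 6 lower) and 11 complement genes (1 higher, 10 lower) passed.

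**Figure D1:**
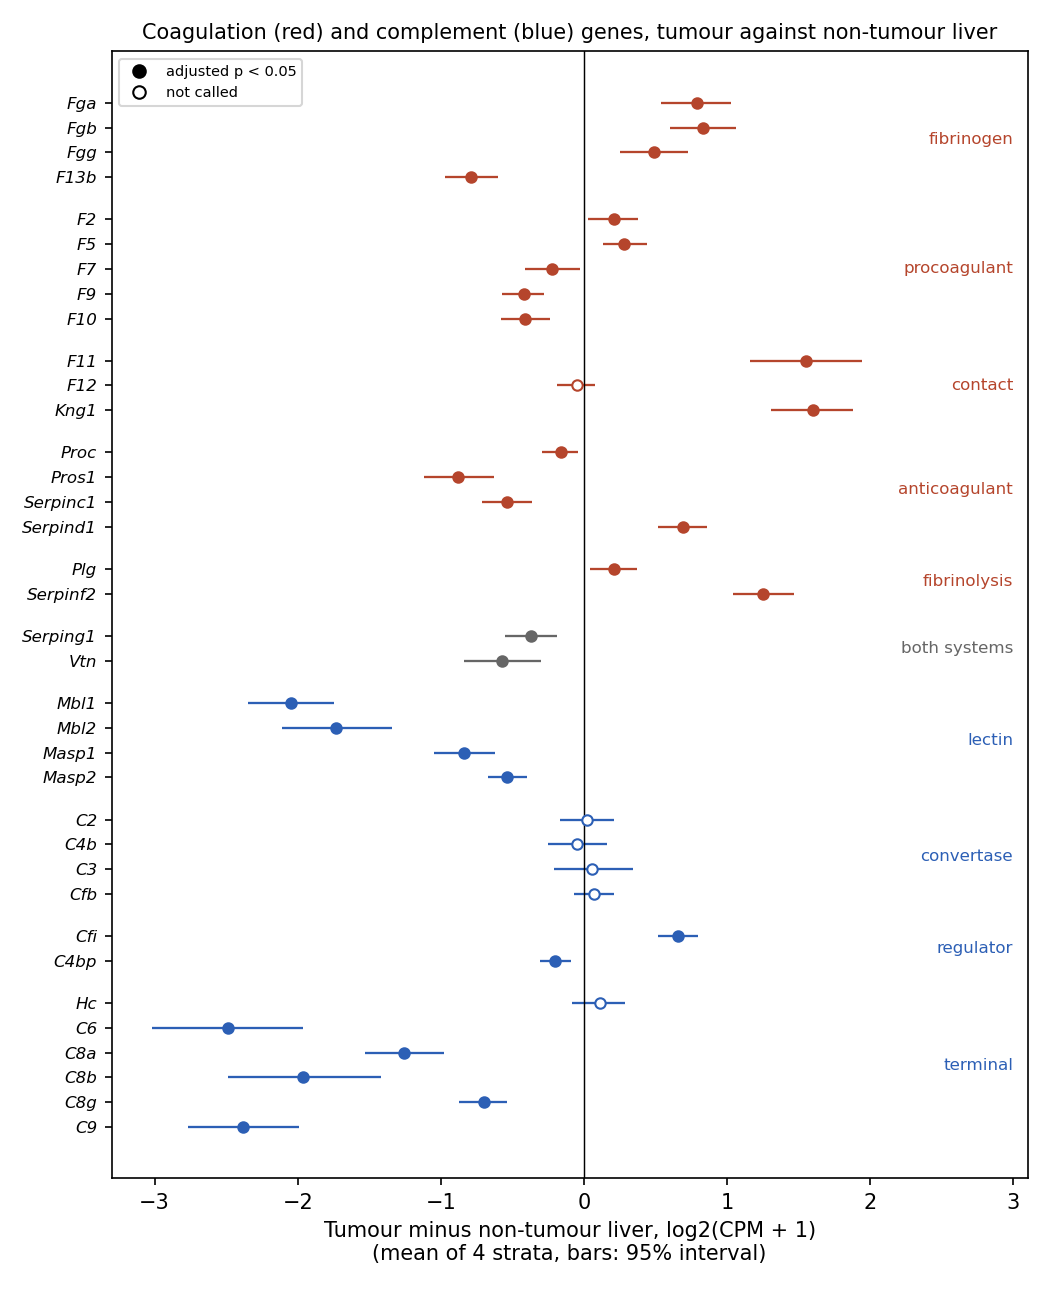
Difference between tumour and non-tumour liver on the log2(CPM + 1) scale (x axis) for each of the 36 genes (y axis), as the mean of the 4 combinations of diet and genotype label with its 95% interval. Filled points passed limma and open points did not; the lectin and terminal complement genes lie to the left, with C6 lowest at -2.49, and Kng1 lies farthest right at 1.6.

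In the lectin pathway all 4 members fell. Mbl1 (ENSMUSG00000037780, chr14:41151458-41159601), mannose-binding lectin A, which recognises microbial sugars, was at 126 to 215 CPM (median 169) in non-tumour liver and at 26.1 to 118 CPM (median 35.9) in tumours. No tumour reached the non-tumour range. Its difference was -2.05 ± 0.15 (SE), a 4.15-fold lower level (limma adjusted p = 1.29e-11). Mbl2 (ENSMUSG00000024863, chr19:30232942-30239687), the second mannose-binding lectin, was at 236 to 419 CPM (median 297) and at 25.6 to 251 CPM (median 113), a difference of -1.73 ± 0.19 (adjusted p = 1.68e-08). For Mbl2 2 of the 13 tumours lay inside the non-tumour range. The proteases that the lectins activate fell less: Masp1 by 0.84 and Masp2 by 0.54 on the log2 scale. Masp1 medians were 92.7 and 44.8 CPM, and Masp2 medians 191 and 124 CPM.

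Of the terminal components, whose products assemble into the membrane pore, 5 of 6 fell. C6 (ENSMUSG00000022181, chr15:4727175-4814967) was at 156 to 488 CPM (median 286) in non-tumour liver and at 11.8 to 142 CPM (median 49) in tumours. The groups did not overlap, and the difference of -2.49 ± 0.26, 5.62-fold, was the largest of the 36 genes (adjusted p = 6.77e-09). C9 (ENSMUSG00000022149, chr15:6445327-6498751), which polymerises to form the pore, was at 368 to 752 CPM (median 532) and at 28.5 to 289 CPM (median 114). It did not overlap either, at -2.38 ± 0.19 or 5.2-fold lower (adjusted p = 8.25e-11).

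The 3 chains of C8, which inserts into the membrane before C9, fell by different amounts. C8b (ENSMUSG00000029656, chr4:104766317-104804548) was at 61.7 to 468 CPM (median 207) in non-tumour liver and at 25.2 to 152 CPM (median 41.3) in tumours, with a difference of -1.96 ± 0.26 (adjusted p = 4.82e-07). Its neighbour C8a (ENSMUSG00000035031, chr4:104815679-104876398), whose promoter is printed above with that of C8b, was at 467 to 1165 CPM (median 959) and at 219 to 522 CPM (median 361), with a difference of -1.26 ± 0.13 (adjusted p = 1.34e-08). These genes are 11.1 kb apart on chromosome 4, and tumours overlapped the non-tumour range in both, 2 for C8b and 3 for C8a. C8g, the third chain, encoded on chromosome 2, had medians of 201 and 125 CPM without overlap, and fell by 0.7. Hc, the mouse C5 gene, which supplies the first part of the pore, did not pass, with medians of 1647 and 1721 CPM and a difference of 0.11 (95% interval -0.08 to 0.29). In sum the 6 terminal genes held 2687 to 4851 CPM in non-tumour liver and 1975 to 3016 CPM in tumours, and the 4 lectin pathway genes 656 to 928 CPM and 210 to 606 CPM.

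**Figure D2:**
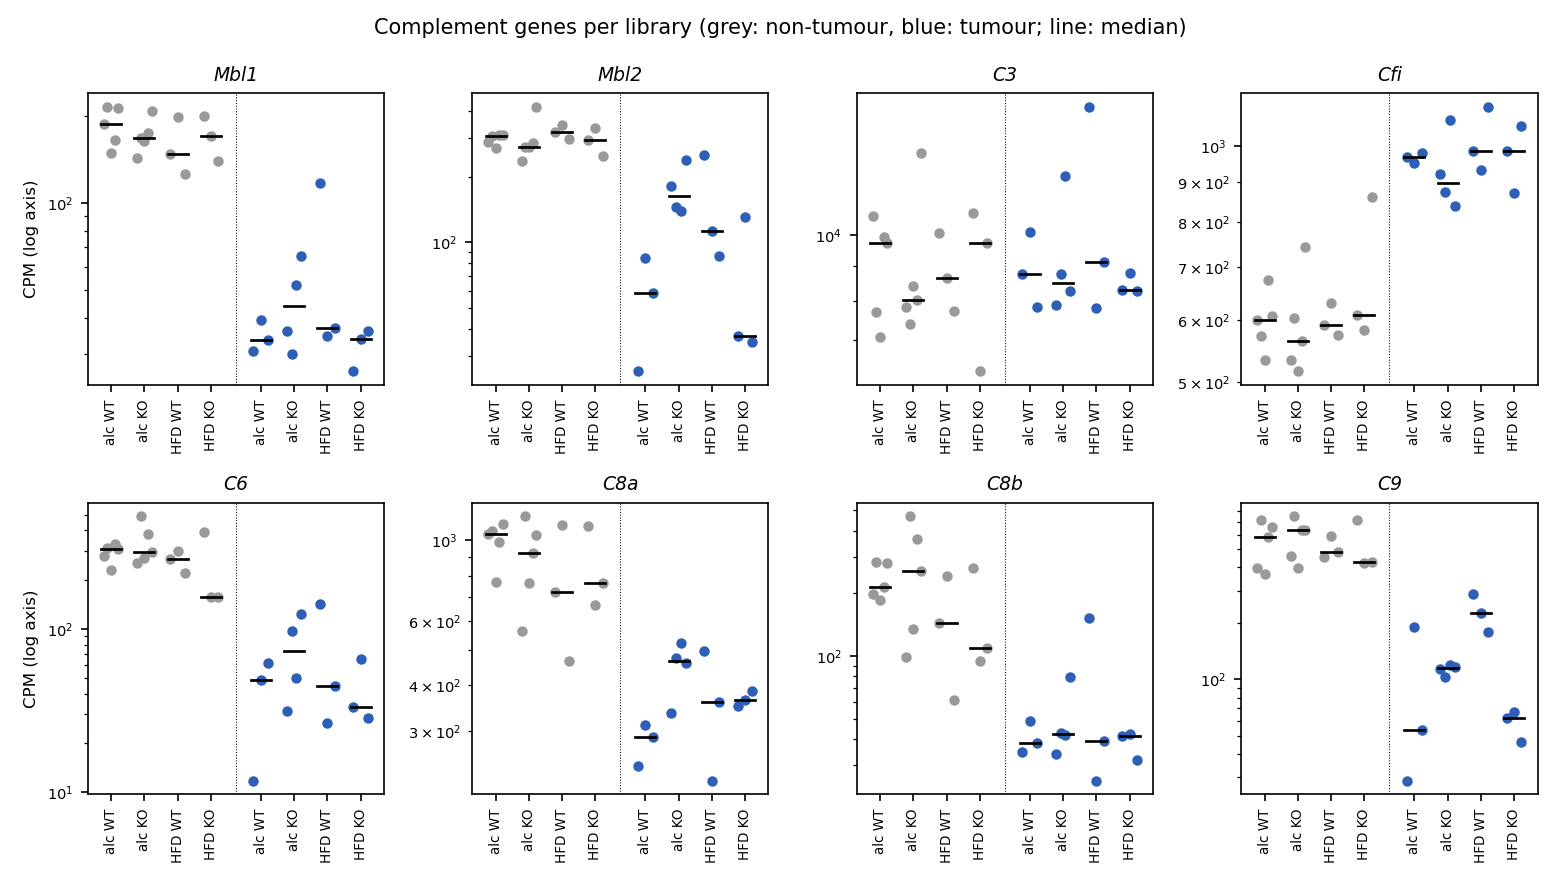
CPM (log axis) of 8 complement genes in each library, by diet (alc: alcohol), genotype label (KO: labelled IL17RA-/-) and tissue, with group medians as lines. Mbl1, C6 and C9 do not overlap between the 16 non-tumour and 13 tumour libraries, C3 overlaps throughout, and Cfi is higher in tumours.

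None of the 4 convertase genes passed. C3 was at 6290 to 13213 CPM (median 8522) in non-tumour liver and at 7803 to 15477 CPM (median 8751) in tumours, with a difference of 0.06 (95% interval -0.21 to 0.34). For C4b, which supplies the C4 part of the classical and lectin convertases, the interval ran from -0.25 to 0.16. It ran from -0.17 to 0.21 for C2, the protease of the same convertases, and from -0.07 to 0.21 for Cfb, that of the alternative pathway. None of these intervals reaches the differences seen in the lectins. The 2 regulators moved in opposite directions. Cfi (ENSMUSG00000058952, chr3:129835884-129875332), the protease that degrades C3b and C4b, was at 515 to 862 CPM (median 596) and at 838 to 1123 CPM (median 968), a rise of 0.66 ± 0.07 (adjusted p = 1.06e-08). It was the only complement member that rose, and 1 tumour lay inside the non-tumour range. C4bp, a cofactor for Cfi, had medians of 675 and 560 CPM and fell by 0.2. C4b has a near-identical paralog in the mouse and Cfb and C2 lie 85 bases apart, so their counts may share reads.

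The ratio of C3 to C9 set a gene that did not pass against one that fell. It was 9.81 to 26.9 (median 16.6) in non-tumour liver and 34.4 to 307 (median 84.7) in tumours. The ratio of Kng1 to C9, taken from one gene of each system, was 2.36 to 7.7 and 9.1 to 258. Neither ratio overlapped between the tissues, but C9 alone did not overlap either, and Kng1 had the largest rise of the members. The ratios thus restate differences already seen in these genes and are no separate evidence. Ratios within a library do not depend on how libraries are scaled to each other.

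Among coagulation genes the contact group held the largest rises. Kng1 (ENSMUSG00000022875, chr16:23057865-23082078) encodes kininogen, the source of bradykinin, whose high molecular weight form is the cofactor of the contact proteases. Gene totals do not separate its forms. Kng1 was at 1587 to 3291 CPM (median 1872) in non-tumour liver and at 2628 to 8397 CPM (median 7021) in tumours. A single tumour, WT HFD replicate 4, lay inside the non-tumour range. The difference was 1.6 ± 0.14, 3.02-fold (adjusted p = 4.36e-10). Kng2, its paralog, rose as well, by 1.18, with medians of 228 and 573 CPM, and how reads were shared between them is not known. F11 (ENSMUSG00000031645, chr8:45241174-45262031), the intrinsic pathway protease whose promoter is printed above, was at 18.7 to 75.3 CPM (median 38.3) and at 58.9 to 151 CPM (median 117). It rose by 1.55 ± 0.19 (adjusted p = 1.34e-07), with 2 tumours inside the non-tumour range. F12, which starts the contact pathway, did not pass, with medians of 416 and 426 CPM and a 95% interval of -0.19 to 0.08.

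All 3 fibrinogen chains rose. Fgb (ENSMUSG00000033831, chr3:83040141-83049863) was at 2261 to 4479 CPM (median 3275) in non-tumour liver and at 4128 to 7159 CPM (median 6033) in tumours, a rise of 0.83 ± 0.11 (adjusted p = 6.59e-07). Fga (ENSMUSG00000028001, chr3:83026076-83033627), the alpha chain, had medians of 3656 and 6181 CPM and rose by 0.79 ± 0.12 (adjusted p = 2.68e-06). For both, WT HFD replicate 4 was again the single tumour inside the non-tumour range. Fgg, the gamma chain, rose less, by 0.49, from a median of 2370 to 3336 CPM, and 6 tumours lay inside the non-tumour range. The 3 genes form a cluster on chromosome 3, with 11026 bases between Fgg and Fga and 6513 bases between Fga and Fgb. F13b (ENSMUSG00000026368, chr1:139501702-139523752), the carrier subunit of the enzyme that crosslinks fibrin, went the other way, at 196 to 271 CPM (median 222) and 90.5 to 217 CPM (median 132). It fell by 0.79 ± 0.09 (adjusted p = 4.14e-08).

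The chains did not keep the same proportion in the tissues. The ratio of Fgg to Fgb in CPM was 0.693 to 0.787 (median 0.741) in the 16 non-tumour libraries and 0.441 to 0.665 (median 0.595) in the 13 tumours, with no overlap. The ratio of Fga to Fgb was 1.04 to 1.2 (median 1.15) and 1.01 to 1.25 (median 1.07), and overlapped. The 3 chains enter the fibrinogen molecule in equal numbers, and these values are of transcripts, not of protein.

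**Figure D3:**
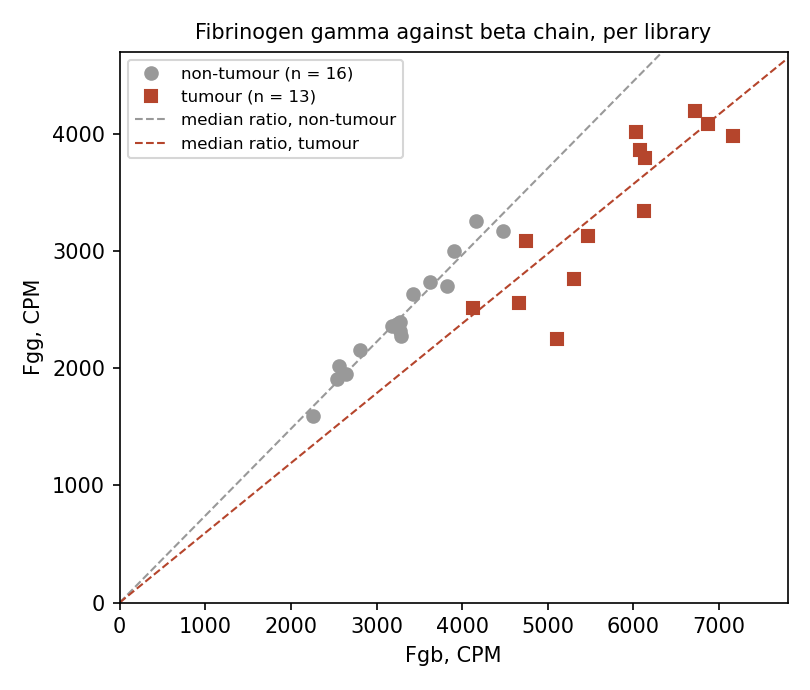
CPM of Fgg (y axis) against CPM of Fgb (x axis) in the 16 non-tumour (grey circles) and 13 tumour (red squares) libraries, with lines at the median ratios of 0.741 and 0.595. The tumours lie to the right of and under the non-tumour line.

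The procoagulant proteases and cofactors moved little. F9, the protease of the intrinsic tenase, had medians of 231 and 167 CPM and fell by 0.42, and F10, the protease of prothrombinase, had medians of 291 and 230 CPM and fell by 0.41. F5, the cofactor of F10, rose by 0.28, from a median of 946 to 1111 CPM. F2 (prothrombin) at 0.21 and F7, the protease of the extrinsic pathway, at -0.22 passed narrowly, with limma adjusted p = 0.0348 and 0.0398. With median-ratio scaling the adjusted p of F2 was 0.186, and without WT HFD tumour replicate 5 that of F7 was 0.106. Each of F2 and F7 also missed the threshold in several other fits that left out a single library. In all 5 genes tumour and non-tumour libraries overlapped.

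Anticoagulants were split. Pros1 (ENSMUSG00000022912, chr16:62854307-62929346), protein S, a cofactor of activated protein C, was at 90.9 to 156 CPM (median 132) in non-tumour liver and at 33.7 to 164 CPM (median 74.3) in tumours, and fell by 0.88 ± 0.12 (adjusted p = 5.72e-07). The highest tumour, WT HFD replicate 4, lay above every non-tumour library. Serpinc1, antithrombin, fell by 0.54, from a median of 1542 to 1051 CPM, and Proc, protein C, by 0.16. Serpind1 (ENSMUSG00000022766, chr16:17331371-17343575), heparin cofactor II, another thrombin inhibitor, rose by 0.69 ± 0.08 (adjusted p = 7e-08), from 362 to 560 CPM (median 491) to 488 to 952 CPM (median 801). For fibrinolysis, Serpinf2 (ENSMUSG00000038224, chr11:75431732-75439591), the plasmin inhibitor antiplasmin, was at 345 to 793 CPM (median 586) and at 921 to 1586 CPM (median 1330). It was the only coagulation gene without overlap, and rose by 1.25 ± 0.1 (adjusted p = 1.75e-10). Plg, plasminogen, the precursor of plasmin, had medians of 1518 and 1755 CPM and a difference of 0.21 (adjusted p = 0.0271), which was lost with median-ratio scaling (adjusted p = 0.171).

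**Figure D4:**
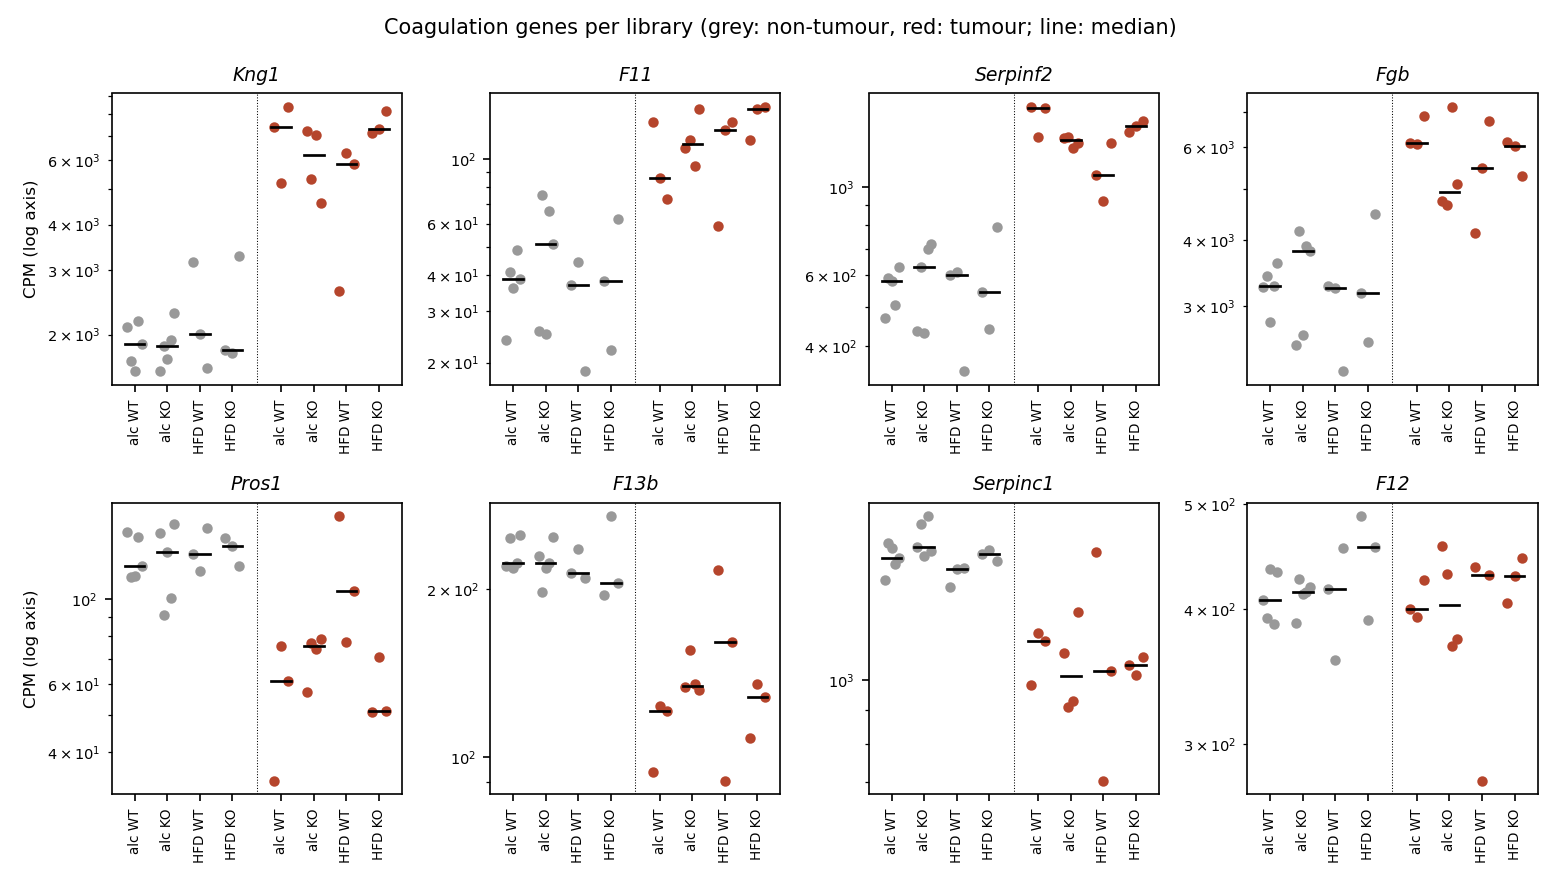
CPM (log axis) of 8 coagulation genes in each library, by diet (alc: alcohol), genotype label (KO: labelled IL17RA-/-) and tissue, with group medians as lines. Kng1, F11, Serpinf2 and Fgb are higher in tumours, Pros1, F13b and Serpinc1 lower, and F12 overlaps.

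The genes that serve both systems fell over all libraries, but each was called in only 1 of the 4 combinations, WT on alcohol. Tumours inside the non-tumour range numbered 6 for Serping1 and 1 for Vtn. Serping1, the C1 inhibitor, which blocks C1 and the contact proteases, had medians of 586 and 467 CPM and fell by 0.37. Vtn, vitronectin, which stabilises an inhibitor of plasminogen activators and binds terminal complement complexes, had medians of 1590 and 1098 CPM and fell by 0.57.

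In all 13 tumours against 16 non-tumour libraries, the ranges did not overlap for 1 coagulation gene (higher) and 4 complement genes (lower), against 6.15% of all genes (2.84% higher, 3.3% lower). Members with a difference of 1 or more numbered 9, and WT HFD tumour replicate 4 lay inside the non-tumour range for 5 of them (Kng1, Mbl2, C8b, F11 and C8a). No other tumour did so for more than 2. Without it, the ranges did not overlap for 4 members that were higher and 7 that were lower, against 11.5% of all genes in the same 12 and 16 libraries (4.17% higher, 7.3% lower). Its summed liver tumour markers were at 483 CPM, the lowest of the tumours, and its summed hepatocyte markers, at 100181 CPM, were also the lowest of the tumours. Other lists went both ways. Its stellate cell and fibroblast markers summed to 551 CPM, nearer the non-tumour median of 661 CPM than the tumour median of 1136 CPM. The next 3 lists did not lie toward non-tumour liver. Its cholangiocyte markers summed to 1633 CPM and its monocyte-derived macrophage markers to 1928 CPM, above the highest non-tumour libraries at 207 and 820 CPM, and Spp1 is counted in both lists. Its endothelium markers summed to 395 CPM, below the lowest non-tumour library at 665 CPM. The part of these marker levels in its values was not tested.

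Spread between the libraries of a tissue (its groups pooled) differed by gene. In non-tumour liver the coefficient of variation was 6.39% for Serpinc1, 6.73% for C4bp and 7.59% for F12, but 50.9% for C8b and 40.6% for F11. In tumours it was above 50% for 5 complement genes: C6 (66.7%), C8b (66.2%), C9 (63.6%), Mbl2 (62.8%) and Mbl1 (55.5%). Without WT HFD replicate 4 the values were 61%, 32.1%, 57.6%, 60.7% and 28.3%, and C8b and Mbl1 were no longer above 50%. Each of these is among the genes that fell by more than 1.5 on the log2 scale. Among coagulation genes Pros1 had the largest value in tumours, 42.5%, which was 26.9% without that tumour.

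Within the 4 combinations of diet and genotype label, the 36 genes were called in both directions each time. In WT on alcohol 8 were higher and 17 lower, against 35.7% of all genes called (16.6% higher, 19.2% lower). In labelled IL17RA-/- on alcohol 7 were higher and 12 lower, against 39.9% (21.8% and 18.1%). In WT on HFD 6 were higher and 8 lower, against 15.3% (7.64% and 7.61%). In labelled IL17RA-/- on HFD 7 were higher and 14 lower, against 40.4% (23.9% and 16.5%). Complement genes higher numbered 1 in each combination, and those lower 9, 8, 7 and 10 in the same order. Coagulation genes higher numbered 7, 6, 5 and 6, and those lower 6, 4, 1 and 4. Kng1, F11, Serpinf2, Fga and Fgb were called higher and F13b lower in all 4; so were Cfi higher and C6, C8a, C8g, Mbl1, Masp1 and Masp2 lower. All 18 coagulation genes kept their sign in the 4 combinations, but 5 of them were called in none, and F12 was only at -0.01 to -0.13. The share of all genes that kept their sign was not counted. Of 16 complement genes, 11 kept theirs. The exceptions were C3, C2, C4b and Cfb, which did not pass over all libraries, and C4bp.

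In WT on alcohol C6 (-3.08) and C9 (-2.96) fell most and Cfi (0.7) rose, while among coagulation genes Kng1 (1.87) and Serpinf2 (1.43) rose and Pros1 (-1.23) and F13b (-1.04) fell. In labelled IL17RA-/- on alcohol C9 (-2.3) and C6 (-2.29) fell most and Cfi (0.65) rose, Kng1 (1.67) and F11 (1.37) rose, and Pros1 (-0.78) and F13b (-0.68) fell. In labelled IL17RA-/- on HFD C9 (-3.11) and C6 (-2.4) fell most and Cfi (0.53) rose, Kng1 (1.77) and F11 (1.85) rose, and Pros1 (-1.23) and F13b (-0.84) fell. In WT on HFD C6 (-2.2) and Mbl1 (-1.52) fell most and Cfi (0.76) rose, F11 (1.65) and Serpinf2 (1.1) rose, and F13b (-0.58) fell. All are log2 differences.

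The WT HFD comparison rested on few libraries. It called 6 coagulation and 8 complement genes, and 0 and 1 when only the 6 libraries compared entered the fit. Leaving out 1 library gave 2 and 2 without tumour replicate 5, 3 and 5 without tumour replicate 6, and 1 and 4 without non-tumour replicate 3. Without non-tumour replicate 2 the complement count was 3. With 4 of the 6 doubted libraries left out, tumour replicate 4 and non-tumour replicate 1 of this comparison among them, it called 9 and 8. No member passed the test of whether the tumour difference depended on genotype label (smallest adjusted p = 0.593) or on diet (smallest adjusted p = 0.999), nor did any gene (0% of 13586), and at an unadjusted p under 0.05 there were 0 and 0 members, where 9.32% and 3.67% of all genes were.

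Comparisons of genotype label rest on the label alone. Il17ra was at 15.9 to 37 CPM (median 26.9) in the non-tumour alcohol libraries labelled IL17RA-/- and at 16.1 to 42.5 CPM (median 27.3) in WT. In non-tumour HFD liver it was at 16.5 to 36.1 CPM (median 20.9) in the labelled and at 25.2 to 27.3 CPM (median 26.3) in the WT libraries, a lower median with overlapping ranges. In alcohol tumours it was at 42.4 to 55.8 CPM (median 51.7) and at 32.3 to 33.8 CPM (median 33.4). In HFD tumours it was at 54.4 to 62.9 CPM (median 60.8) and at 22.9 to 48.5 CPM (median 27). The transcript was thus present in every labelled library, and its median was higher than in WT in the tumours; gene totals do not reveal a deletion of some exons. In non-tumour liver 0 of 36 members passed between genotype labels on either diet (0% of 12829 genes in both), and 0 had an unadjusted p under 0.05, where 2.57% of all genes on alcohol and 3.59% on HFD had. The largest differences were 0.26 for F11 on alcohol (95% interval -0.48 to 0.99) and -0.28 for C6 on HFD (-0.92 to 0.36). By class the others were C8a at -0.19 on alcohol and Fgg at 0.26 on HFD.

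In tumours on HFD the libraries labelled IL17RA-/- had lower C9 than WT. C9 was at 62.1, 67 and 46 CPM in these (replicates 4 to 6) and at 289, 227 and 179 CPM in WT. All 3 labelled libraries lay under all 3 WT libraries, and the share of all genes that separate in this way was not counted. The difference of -1.96 ± 0.47 missed the threshold (limma adjusted p = 0.0543), where 1.61% of 13269 genes passed and 7 of 36 members had an unadjusted p under 0.05, as 22.5% of all genes did. Over 14 alternatives its adjusted p was 0.0336 to 0.194, and it passed in 3. Pros1 was at 50.9, 70.5 and 51.1 CPM against 164, 77.4 and 105 CPM, also without overlap, and its difference of -0.94 ± 0.3 did not pass (adjusted p = 0.0996, 0.032 to 0.326 over the alternatives).

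**Figure D5:**
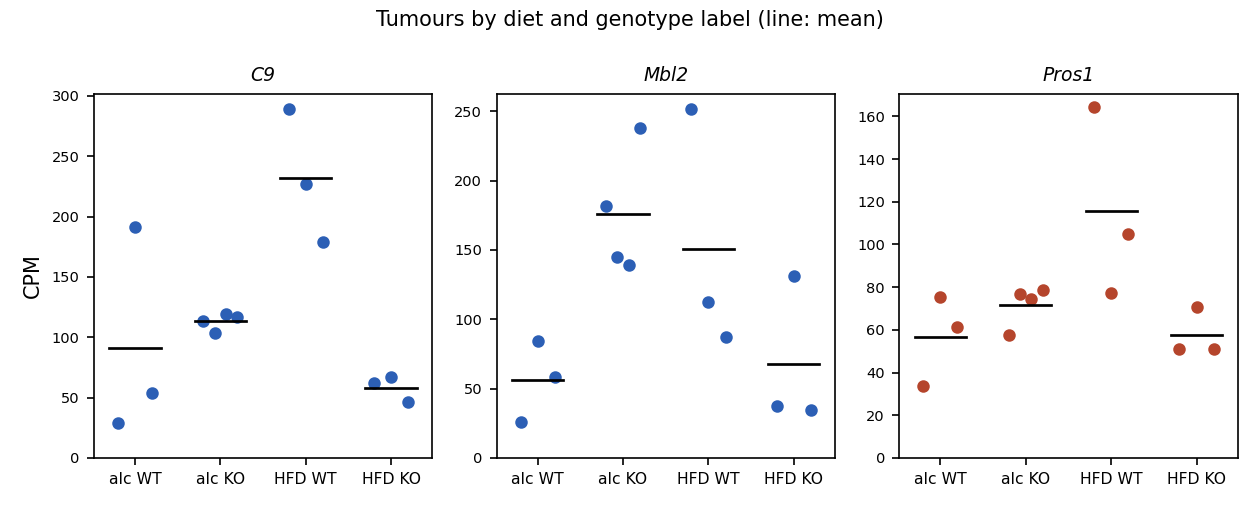
CPM of C9, Mbl2 and Pros1 (y axes from 0) in each of the 13 tumours by diet (alc: alcohol) and genotype label (KO: labelled IL17RA-/-), with group means as lines. C9 in HFD tumours is at 46 to 67 CPM in the labelled and 179 to 289 CPM in the WT libraries, and Mbl2 in alcohol tumours is higher in the labelled libraries.

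In tumours on alcohol the order of C9 was not the same. It was at 114, 103, 119 and 117 CPM in the libraries labelled IL17RA-/- and at 28.5, 192 and 53.6 CPM in WT, which overlap. Mbl2 had the largest difference there, with 181, 145, 139 and 238 CPM in the labelled libraries and 25.6, 84.6 and 58.3 CPM in WT, and no overlap. At 1.75 ± 0.49 it did not pass (adjusted p = 1), as 0 of 36 members and 0% of 13269 genes did, with 3 members and 1.97% of all genes at an unadjusted p under 0.05. The share of all genes without overlap between the labelled and WT alcohol tumours was not counted. In HFD tumours Mbl2 was at 37.1, 131 and 34.7 CPM in the labelled libraries and at 251, 113 and 86.9 CPM in WT. F10 had the largest difference of the coagulation genes on alcohol, 0.47 (95% interval 0.04 to 0.9).

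Alcohol was compared with HFD within each tissue and genotype label. In non-tumour liver 0 of 36 members passed in WT and 0 in labelled IL17RA-/- (0% of 12829 genes in both), with 0 and 2 members at an unadjusted p under 0.05, where 4.22% and 5.81% of all genes were. C8b had the largest difference in both, 0.81 (95% interval -0.24 to 1.87) and 0.69 (-0.36 to 1.74). The largest of the coagulation genes were F7 at 0.31 in WT and Kng1 at -0.24 in labelled IL17RA-/-. The width of these intervals leaves room for changes of more than 1 on the log2 scale in the variable genes.

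In WT tumours C9 had the largest difference between diets, -1.75 ± 0.47 (limma adjusted p = 0.186, 0.00598 to 0.546 over 14 alternatives), with 0 of 36 members passing and 0.00754% of 13269 genes. It passed only without alcohol replicate 5, which at 192 CPM was the single alcohol tumour inside the HFD range of 179 to 289 CPM. Pros1 was next among coagulation genes, at -1.02 (adjusted p = 0.198), and 6 of 36 members had an unadjusted p under 0.05, as 16% of all genes did. In tumours labelled IL17RA-/- the largest differences were those of Mbl2, 1.61 (95% interval 0.55 to 2.68, adjusted p = 1), and Kng1, -0.34. There 0 of 36 members and 0% of genes passed, with 2 members and 2.21% of all genes at an unadjusted p under 0.05. Limma-voom called 0 members in each of these 8 comparisons of label or diet and in both tests of dependence.

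Other genes of the pathways were taken from lists that hold no member. Of 31 tested coagulation genes outside the 36, 12 rose, 7 fell and 12 did not pass between tumour and non-tumour liver. Of all genes tested 63.6% passed, 36.6% higher and 27% lower. F2rl1, a protease-activated receptor, rose most (2.7; medians 0.722 and 11.8 CPM), followed by Plat, the tissue plasminogen activator (2.62; 2.4 and 23.2 CPM), and Anxa2, a plasminogen and Plat docking protein (1.99; 47.7 and 216 CPM). Serpine2, an inhibitor of thrombin and plasminogen activators (-1.83; 13.2 and 3.6 CPM), Tfpi2 (-1.01) and Adamts13, which cleaves von Willebrand factor (-1), fell most.

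Of 31 tested complement genes outside the members, 2 rose, 16 fell and 13 did not pass, against 63.6% of all genes passing (36.6% higher, 27% lower). Cfd, the protease that activates factor B, had the largest fall, with a difference of -3.51. It was at 0 to 112 CPM (median 14.2) in non-tumour liver and at 0 to 1.51 CPM in tumours, with a tumour median of 0, so the size of this difference depends on the pseudocount. Colec10, a further lectin pathway recognition protein, fell by 2.07 (medians 78.8 and 18.8 CPM), and Vsig4, a complement receptor of resident macrophages, by 1.89 (55.2 and 13.1 CPM). Itgax (1.02), a complement receptor subunit of myeloid cells, and Clu (0.75), clusterin, an inhibitor of terminal complex insertion, rose. Among genes that hepatocytes do not mainly supply, C1qa fell by 0.59 and C1qc by 0.6, while C1qb, at -0.55, did not pass (limma adjusted p = 0.055).

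Depth recovered from the table was 3213695 to 9660584 counts per library, so that 3 counts stood for 0.31 to 0.93 CPM, below every member in every library. In bulk tissue, fewer cells of a type and less RNA per cell cannot be told apart. Of 10 hepatocyte markers 2 rose and 6 fell in tumours, while their sum was 81479 to 115568 CPM in non-tumour liver and 100181 to 197289 CPM in tumours. Of 10 Kupffer cell markers 9 fell (260 to 1748 and 142 to 545 CPM). Vsig4, Fcna, C1qa and C1qb are counted both in this list and among the complement genes outside the members. Itgax is likewise shared with the monocyte-derived macrophage list. Of 8 cholangiocyte markers 7 rose (28.1 to 207 and 126 to 1999 CPM), as did 6 of 10 stellate cell and fibroblast markers, with 2 lower (350 to 1148 and 407 to 1979 CPM). All 7 liver tumour markers rose (8.93 to 568 and 483 to 1506 CPM), and the non-tumour group that reached above the lowest tumour was the one labelled IL17RA-/- on HFD. Of 14 acute phase genes 5 rose and 7 fell, and of 12 hepatocyte transcription factors 4 rose and 3 fell. The neutrophil markers Ly6g, Retnlg and Elane were under 1 CPM in every library. The part of these lists in the differences of the 36 genes was not tested.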

How the data were processed

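PolyA-selected stranded libraries of 29 mouse liver samples were sequenced, per the labels' protocols. The submitters' processing notes name the aligner STAR (2.5.1a), the counter RSEM (1.3.0) and the GRCm38 build. No source used here states the annotation or strand setting of the counting. Values are CPM, which the authors deposited as a single table in which every library has the same total. In each library 83.2% to 86.1% of nonzero values were whole multiples of 1 count within a tolerance of 0.002 counts, and at least 99.7% were whole hundredths, which gave the depth of 3213695 to 9660584 counts. The floor of 3 counts covers counting error only. Symbols came from GENCODE M21, which matched 21653 IDs and left 534 without one.

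Differences were tested by limma (3.58.1, R 4.3.3) with a variance trend on log2(CPM + 1). Genes had to reach 1 CPM in 3 or more libraries of the fit. On this scale the fold changes of low genes are understated. Tissue comparisons were fitted on 29 libraries, the others on the 16 non-tumour or 13 tumour libraries. The fit was tested on simulated data. The members, the gene lists, the doubted libraries and the tests were chosen with earlier results of these data known. The doubted libraries were WT HFD tumour replicate 4, WT HFD non-tumour replicate 1 and, labelled IL17RA-/-, alcohol tumour replicate 5, HFD non-tumour replicate 3 and alcohol non-tumour replicates 2 and 4. Genes were named by a rule: in the mean over tissue comparisons up to 5 called in each direction and class, elsewhere up to 2, or the largest difference where none was called.

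Replicate numbers pair no libraries per the labels. In the comparison of diets in WT non-tumour liver, same-numbered libraries deviated together (r = 0.33, 0.257 and 0.13 over genes), so the numbers may pair them there. A fit of that comparison with the replicate block called 0 members too. Between genotype labels in non-tumour alcohol liver, r was 0.399, 0.239, -0.13, -0.154 and 0.00157 for replicates 1 to 5. The alternatives tried were median-ratio scaling, limma-voom on recovered counts, a pseudocount of 0.1, no filter on low values, the compared groups alone, a replicate block and leaving out libraries. Promoter sequences came from RefSeq (GRCm38.p6).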

Additional observations from a re-analysis of the deposited data

Results flagged for a closer look

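Each of the 36 genes was examined in the 3 groups of 4 or 5 libraries for a single library far from the others by Dixon's test at 95%. Of 108 such sets 5 held one, where chance gives about 1 in 20.

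Of these 5, 4 came from the same library, replicate 5 of the non-tumour alcohol group labelled IL17RA-/-, and all 4 were high. C3 was at 13213 CPM there against 7379 to 8399 CPM in the other 4 libraries, and C4b, the C4 gene, at 2871 CPM against 1620 to 1846 CPM. Serping1, the C1 inhibitor, was at 773 CPM against 469 to 534 CPM, and the lectin Mbl2 at 419 CPM against 236 to 287 CPM. C3, C4b, Serping1 and Mbl2 were thus highest in this library among all 16 non-tumour libraries as well. The fifth set was F13b in alcohol tumours labelled IL17RA-/-, where replicate 5 was at 156 CPM against 132 to 135 CPM. The cause was not tested in either library.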

How the results depend on the processing

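Over all tissue libraries the complement count of 11 held in each alternative on the same members, and the coagulation count of 17 was 15 to 17 in each except the replicate block, with 11 (5 higher, 6 lower). With the 2 shared genes counted in, the counts were 19 and 13. Leaving out 1 library gave 15 to 17 and 11 to 11. The numbers pair no libraries in the tissue comparisons, so the block is given for completeness; under it Plg was at -0.01 (adjusted p = 0.974), the only reversal. The same block gave 0 coagulation and 3 complement genes for WT on HFD and 5 coagulation genes for labelled IL17RA-/- on HFD. For WT on HFD the compared groups alone gave 0 and 1, and leaving out 1 library gave 1 to 8 and 2 to 10. In HFD tumours, 1 complement gene (C9) passed between genotype labels with median-ratio scaling and 1 with the compared groups alone, and leaving out 1 library gave 0 to 1 in each class. For diet in WT tumours, leaving out 1 library gave 0 to 1 complement genes. Of 248 counts from alternatives of the label and diet comparisons, 5 were above 0, and the largest was 1. The causes were not tested. The tests of label and diet compare groups of 3 to 5 libraries. Every member lay above the floor of 3 counts in every library.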

Other observations

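Several members lie next to each other in the genome (GRCm38), and neighbours did not always move alike. Kng1 and Masp1 lie 367.3 kb apart on chromosome 16, on opposite strands, and differed by 1.6 and -0.84 on the log2 scale between tumour and non-tumour liver. C6 and C9 lie 1630.4 kb apart on chromosome 15 and differed by -2.49 and -2.38. F7 and F10 lie 1.5 kb apart on chromosome 8 and differed by -0.22 and -0.41. On chromosome 17, C4b, Cfb and C2 lie within a stretch with gaps of 112.5 kb and 85 bases, and none of them passed the test.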
